A study of Mus musculus with 6 samples.

Results

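The kinesin and tubulin genes of the mouse hippocampus were compared between WT (Ube3am+/p+) mice and Ube3am-/p+ mice, the latter lacking a functional maternal copy of *Ube3a*, the gene of an E3 ubiquitin ligase, as in mouse models of Angelman syndrome. All 6 mice were male C57BL/6 animals aged 6 to 8 weeks, 3 per genotype, with 1 RNA-seq library of hippocampal RNA per mouse. The members are every symbol that starts with Kif and a number or with Tuba, Tubb or Tubg and a number. The families were chosen with earlier results of these data known. The symbol rule gave 58 of the 25239 symbols counted, 40 under kinesins and 18 under tubulins. They include the antisense transcript Kif16bos and the pseudogenes Kif4-ps and Tubb2a-ps2. Of the 58, 29 kinesins and 14 tubulins had enough counts to be tested. The whole hippocampus is a mixture of cell types, so that fewer cells of a type and less RNA per cell cannot be told apart in any of the values.

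Kinesins are motor proteins that hydrolyse ATP to move along microtubules, most of them towards the plus end. In neurons they carry vesicles, mitochondria, receptors and RNA from the cell body into axons and dendrites, and in dividing cells other members build the spindle. Microtubules are polymers of α- and β-tubulin dimers, and γ-tubulin sits in the ring complex from which they are nucleated. Mammals have several genes for each kind of tubulin, and their products differ mainly in the acidic tail at the C-terminus, which lies on the outside of the microtubule, where motors and modifying enzymes meet it.

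The coding ends of the main brain β-tubulins are shown because they hold the part in which the genes differ most, and because the likeness of some of them limits how well reads can be assigned. Each line gives the last 75 coding bases, stop codon included, 5′ to 3′ on the coding strand, from the GENCODE M21 annotation of GRCm38, the assembly also called mm10. Capitals mark bases that differ from *Tubb5*, which encodes the widely expressed form, or that have no counterpart in it. Bases of *Tubb5* that another gene lacks are not marked.
Tubb5, chr17:35834982-35835056, minus strand: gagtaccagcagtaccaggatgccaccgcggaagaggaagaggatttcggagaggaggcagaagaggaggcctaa
Tubb4b, chr2:25222308-25222382, minus strand: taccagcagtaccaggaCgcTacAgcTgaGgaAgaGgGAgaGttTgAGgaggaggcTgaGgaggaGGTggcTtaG
Tubb4a, chr17:57080690-57080764, minus strand: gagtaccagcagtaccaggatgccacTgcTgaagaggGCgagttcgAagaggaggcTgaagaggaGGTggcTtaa
Tubb2a, chr13:34074468-34074542, minus strand: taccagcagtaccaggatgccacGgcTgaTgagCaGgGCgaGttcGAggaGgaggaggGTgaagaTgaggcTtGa
Tubb2b, chr13:34127471-34127545, minus strand: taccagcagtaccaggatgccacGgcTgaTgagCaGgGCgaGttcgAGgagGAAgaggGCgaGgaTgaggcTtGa
Tubb3, chr8:123421608-123421682, plus strand: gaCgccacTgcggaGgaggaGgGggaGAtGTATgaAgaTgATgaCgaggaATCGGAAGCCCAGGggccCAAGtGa
*Tubb3*, the form used as a marker of neurons, had 35 capitals in its 75 bases, more than any other of the 5 genes set against *Tubb5*, and *Tubb4a* had the fewest, with 10. The coding sequence of *Tubb3* has 1353 bases, against 1335 in *Tubb5*, so part of its capitals may be added bases. Over the whole coding sequence, *Tubb2a* and *Tubb2b*, neighbours on chromosome 13, were 96.5% identical, while the other pairs of these β-tubulins were between 81.2% and 84.6% identical.

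Among the α-tubulins, *Tuba1b* was 98.3% identical over the coding sequence to *Tuba1a*, the α-tubulin best known from developing neurons. Reads with more than 1 alignment were left out of the gene counts, and part of these transcripts recurs in other genes. Of the 100-base windows of the longest transcript, 69.1% in *Tuba1b*, 53.4% in *Tuba1c*, 50.0% in *Tuba1a*, 36.9% in *Tubb2a*, 29.2% in *Tubb4b* and 27.7% in *Tubb2b* were also found in a transcript elsewhere. The levels of these 6 genes are therefore uncertain. No such window was found in *Tubb3*, *Tubb4a*, *Tubb5*, *Tubb6*, *Tuba4a* or *Tuba8*, and *Tubg1* and *Tubg2* shared 4.11% and 4.23% of theirs, with each other.

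The targeted gene was checked first. *Ube3a* had 104, 141 and 151 CPM (counts scaled to a total of 1000000 gene counts per library) in WT mice 1, 2 and 3, and 96.8, 82.9 and 80.6 CPM in Ube3am-/p+ mice 1, 2 and 3. The genotypes did not overlap, and the difference passed the test (log2 fold change -0.58, adjusted p = 0.0363). Of all 14445 genes tested, 290 (2.01%) were called different, which needed a fold change above 1.2 and an adjusted p below 0.05, and the gene counts per library ranged from 7293272 to 11314409. The libraries stood apart in a way that follows base composition. Across 14329 genes, the deviation of a library from the mean of all 6 was related to the GC content of the transcript with Spearman's rho of -0.51 and -0.57 in WT mice 2 and 3 and of 0.52 and 0.53 in Ube3am-/p+ mice 2 and 3, against 0.05 and 0.06 in the mice numbered 1. Genes are not independent replicates, and these coefficients describe the libraries only. GC content and genotype therefore move together in mice 2 and 3, and values for the members are given also after correcting for GC content and the length of the transcript, and for some results also in the mice numbered 1 alone. After the correction the *Ube3a* difference was -0.20 on the log2 scale (adjusted p = 0.241).

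Per kilobase of the longest transcript, *Kif5a* was at the highest level of the 43 genes tested, with a mean of 412 CPM per kb over the 6 mice, followed by *Tuba1a* with 340, *Tubb4a* with 298, *Tubb2a* with 293 and *Tuba1b* with 189. Among kinesins, *Kif1a* came next with 167 CPM per kb, then *Kif5c* with 130, *Kif1b* with 83.2, *Kif3a* with 58.6 and *Kif5b* with 45.7. At the other end *Kif4*, *Kif18a*, *Kif15* and *Kif11*, motors of the spindle and chromosomes, were between 0.209 and 0.466 CPM per kb. The neighbours *Tubb4a* and *Tubb2a* overlapped, with 257 to 350 and 257 to 355 CPM per kb over the mice, and so did *Tuba1a*, with 314 to 360. The ranges of *Kif5a* (387 to 461) and *Tuba1a* did not overlap. This order holds only for the reads that were counted. No 100-base window of *Kif5a* recurs elsewhere, against 50.0% in *Tuba1a*, 69.1% in *Tuba1b* and 36.9% in *Tubb2a*, whose levels may be too low. *Tuba1a* and *Tuba1b* also share 473 and 426 exonic bases with Gm49450 on the same strand. The kinesins together took 0.771%, 0.748% and 0.724% of the gene counts in the WT mice and 0.757%, 0.761% and 0.688% in the Ube3am-/p+ mice. The tubulins took 0.332%, 0.335% and 0.325% in the WT mice and 0.356%, 0.371% and 0.392% in the Ube3am-/p+ mice, so that the summed tubulin counts of the genotypes did not overlap.

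**Figure D1:**
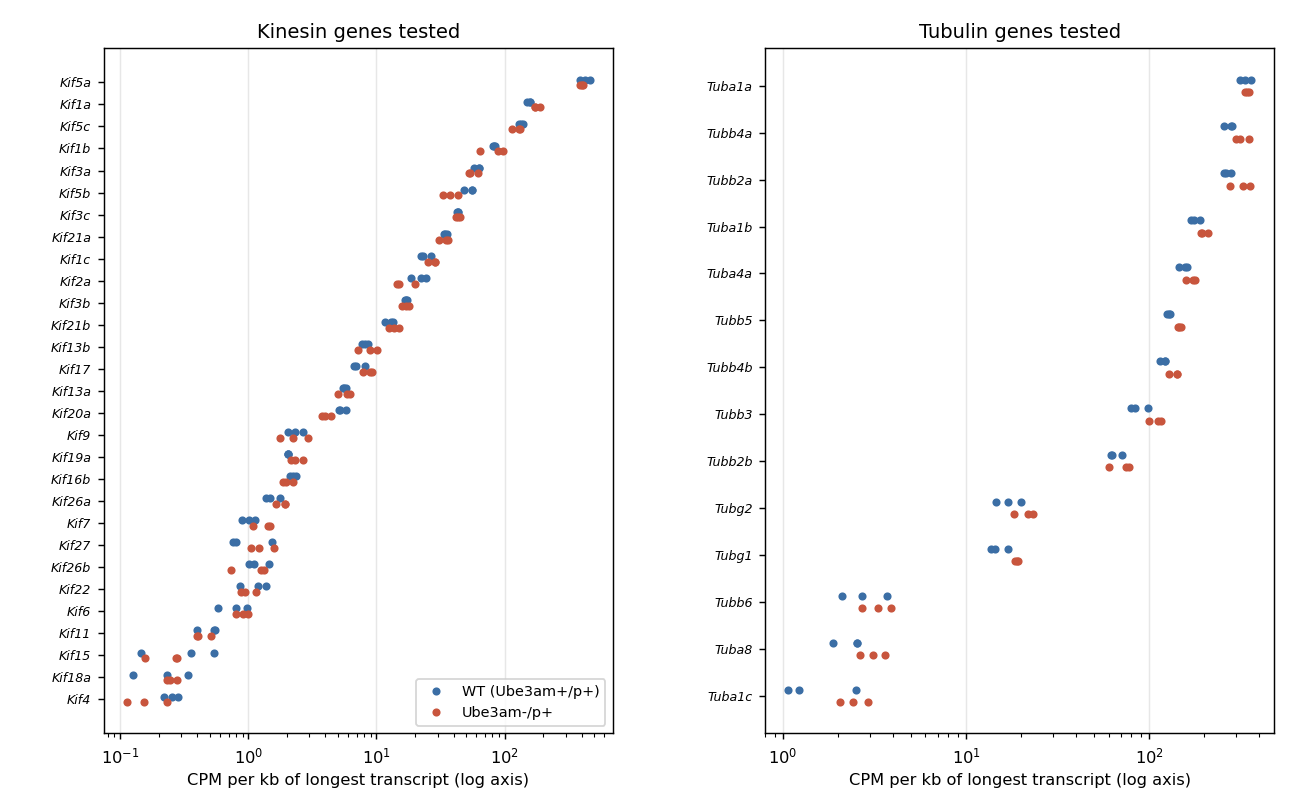
Levels of the 29 kinesin and 14 tubulin genes tested, as CPM per kb of the longest transcript on a log axis, with 1 point per mouse (blue, WT; red, Ube3am-/p+; n = 3 each). Kinesin levels run from 0.209 CPM per kb in *Kif4* to 412 in *Kif5a*, while most tubulins lie between 68.1 (*Tubb2b*) and 340 (*Tuba1a*).

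The families differed in how they stood between the genotypes. Of the 29 kinesins, 15 had a higher and 14 a lower fitted value in Ube3am-/p+ mice, with a median log2 fold change of 0.00, and 1 gene, *Kif5b*, was called lower (3.45%), against 0.990% of all genes called lower. All 14 tubulins had a higher fitted value, with a median log2 fold change of 0.24 against 0.00 over all genes tested, of which 50.3% were higher, yet none was called, against 1.02% of all genes called higher. At an unadjusted p below 0.05 there were 8 of the 14 tubulins (57.1%), all higher, and 6 of the 29 kinesins (20.7%), 3 higher and 3 lower, against 24.6% of all genes (12.2% higher and 12.4% lower). The CPM of the genotypes did not overlap in 7 tubulins (50.0%), all higher, and in 4 kinesins (13.8%), 2 higher and 2 lower. Of all genes 25.0% did not overlap, 10.8% higher and 14.2% lower. When WT mouse 1 was left out, 5 of the 14 tubulins, all higher, and 3 of the 29 kinesins were called, beside 2582 of all genes. When Ube3am-/p+ mouse 1 was left out, 4 of the 14 tubulins, all higher, and 2 of the 29 kinesins were called, beside 1816 of all genes. When any of the other 4 mice was left out, no tubulin and no kinesin was called, beside 0 to 2 of all genes. After the GC and length correction the tubulin median was 0.07, with 12 of 14 genes higher and none at an unadjusted p below 0.05, and the kinesin median was 0.01, with 17 of 29 higher. For the mice numbered 1 alone, where no test is possible, the tubulin median of the log2 ratio was 0.07, with 10 of 14 genes higher, and the kinesin median was -0.03, with 13 of 29 higher.

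**Figure D2:**
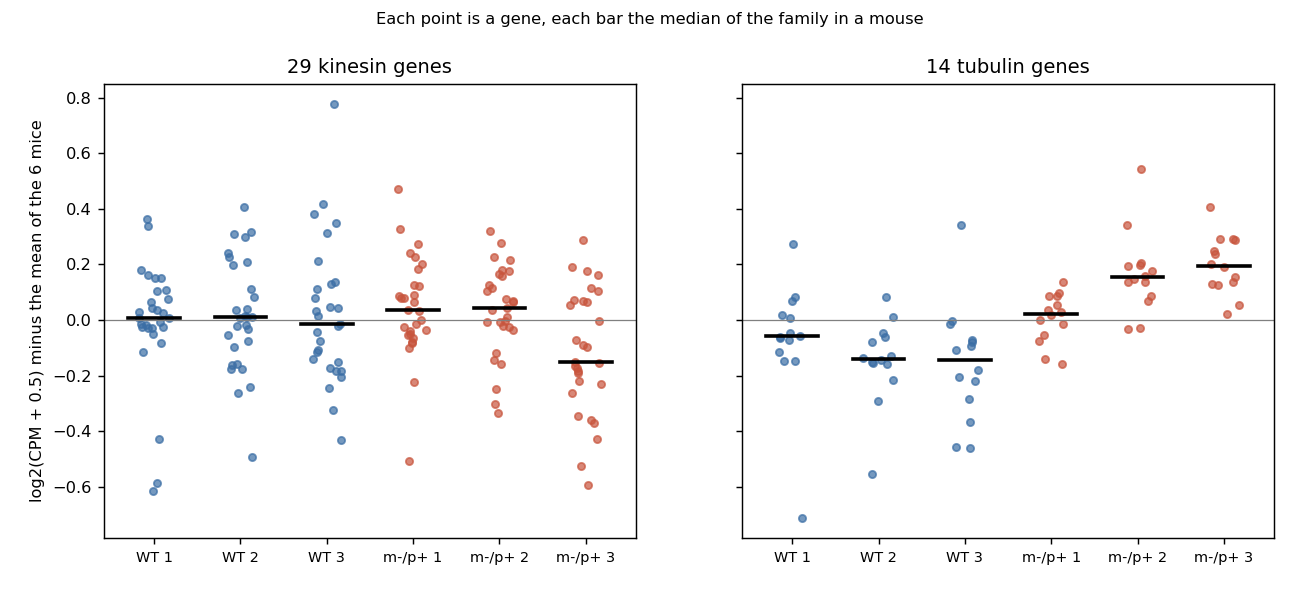
Deviation of each gene from its mean over the 6 mice, as log2(CPM + 0.5), with 1 point per gene and a bar at the median of the family in each mouse. The tubulin medians lie at -0.06, -0.14 and -0.14 in the WT mice and at 0.02, 0.15 and 0.20 in the Ube3am-/p+ mice, while the kinesin medians lie between -0.01 and 0.04 except in Ube3am-/p+ mouse 3, at -0.15.

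The kinesin-1 heavy chains *Kif5a*, *Kif5b* and *Kif5c* encode the motor subunits of conventional kinesin, which carries mitochondria and vesicles down the axon. *Kif5b*, on chromosome 18, is the form found in most tissues, while *Kif5a* and *Kif5c* are mainly neuronal. *Kif5b* had 292, 336 and 337 CPM in the WT mice and 261, 228 and 201 CPM in the Ube3am-/p+ mice. Every Ube3am-/p+ mouse lay below every WT mouse. The gene fell 1.38-fold (log2 fold change -0.47 ± 0.10 SE, adjusted p = 0.0362), and it was the only kinesin called. An exact permutation test of 3 against 3 mice gave its smallest possible p, 0.1. The GC content of its transcript is 41.1%, and after the GC and length correction the log2 fold change was -0.22 (adjusted p = 0.107). In the mice numbered 1 alone the log2 ratio was -0.16. The gene also lost its call when any of WT mice 2 and 3 and Ube3am-/p+ mice 2 and 3 was left out, with log2 fold changes between -0.56 and -0.38 over the 6 mice left out in turn.

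The neuronal heavy chains did not pass the test. *Kif5a* had 2902, 2667 and 2462 CPM in the WT mice and 2529, 2581 and 2437 CPM in the Ube3am-/p+ mice (log2 fold change -0.07 ± 0.08 SE, adjusted p = 0.633). *Kif5c* had 954, 895 and 916 CPM in the WT mice and 911, 885 and 778 CPM in the Ube3am-/p+ mice (-0.09 ± 0.08, adjusted p = 0.559). The genotypes overlapped in both genes, and their values after the correction were -0.14 and 0.00. Per kilobase, *Kif5b* made up 7.47%, 9.14% and 9.62% of the summed level of the 3 heavy chains in the WT mice and 7.50%, 6.55% and 6.24% in the Ube3am-/p+ mice. WT mouse 1 and Ube3am-/p+ mouse 1 had nearly the same share, so that the genotypes overlapped. The log2 ratio of the CPM of *Kif5b* to that of *Kif5c* was -1.52 ± 0.16 (SD, n = 3) in WT mice and -1.90 ± 0.09 (SD, n = 3) in Ube3am-/p+ mice, without overlap. That of *Kif5b* to *Kif5a* was -3.06 ± 0.23 and -3.46 ± 0.17 (SD, n = 3 each), with overlap. The ratio of *Kif5a* to *Kif5c* was 1.54 ± 0.10 and 1.56 ± 0.09 (SD, n = 3 each). These shares and ratios were taken before the GC and length correction, from transcripts of unlike GC content. *Kif5a*, *Kif5b* and *Kif5c* have 53.8%, 41.1% and 47.5% GC, and log2 fold changes of -0.14, -0.22 and 0.00 after the correction. The part of GC content in the ratios was not tested.

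**Figure D3:**
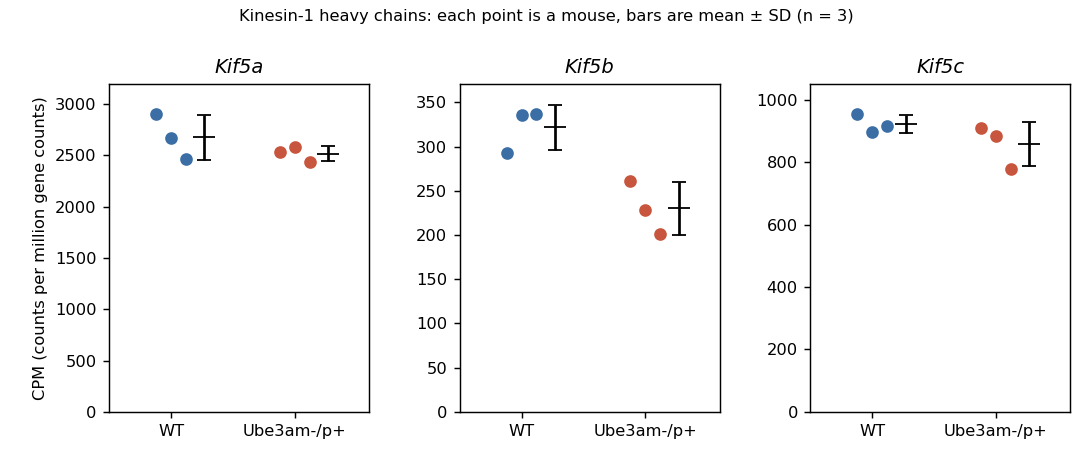
CPM of the 3 kinesin-1 heavy chains, with 1 point per mouse and bars at the mean ± SD (n = 3), on axes that start at 0. *Kif5b* lies at 292 to 337 CPM in WT and 201 to 261 CPM in Ube3am-/p+ mice, while *Kif5a* and *Kif5c* overlap between the genotypes.

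The kinesin-3 motors *Kif1a*, *Kif1b* and *Kif1c* carry synaptic vesicle precursors, mitochondria and other cargo. *Kif1a*, on chr1:93015464-93101951, had 1286, 1293 and 1225 CPM in the WT mice and 1425, 1540 and 1428 CPM in the Ube3am-/p+ mice. The genotypes did not overlap, but the difference was not called (log2 fold change 0.22 ± 0.08 SE, adjusted p = 0.106, and 0.13 with adjusted p = 0.402 after the GC and length correction). *Kif1b* had 831, 850 and 865 CPM in the WT mice and 988, 916 and 657 CPM in the Ube3am-/p+ mice. Ube3am-/p+ mouse 3 was the lowest and mouse 1 the highest of all 6, and the fitted difference was 0.03 ± 0.12 on the log2 scale (0.09 after the correction). *Kif1c* had 179, 153 and 148 CPM in the WT mice and 168, 192 and 191 CPM in the Ube3am-/p+ mice (0.22 ± 0.10, adjusted p = 0.176, and 0.13 after the correction), with WT mouse 1 inside the Ube3am-/p+ range. The other kinesin-3 genes, *Kif13a*, *Kif13b* and *Kif16b*, which act in endosome traffic, had log2 fold changes of 0.04, 0.13 and -0.12 and adjusted p of 0.868, 0.517 and 0.649, and values of 0.00, 0.09 and 0.00 after the correction.

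The kinesin-2 genes *Kif3a*, *Kif3b* and *Kif3c* encode subunits of dimeric motors for axonal and ciliary transport, and *Kif17* a motor for dendritic cargo that includes NMDA receptor subunits. *Kif3a* had 181, 200 and 199 CPM in the WT mice and 195, 170 and 166 CPM in the Ube3am-/p+ mice, with WT mouse 1 and Ube3am-/p+ mouse 1 in reverse order to the others (log2 fold change -0.11 ± 0.09 SE, adjusted p = 0.454, and -0.07 after the correction). *Kif3b* was between 89.0 and 100 CPM over all 6 mice, and *Kif3c* between 286 and 305 CPM, with fitted differences of 0.00 and 0.02 on the log2 scale, and of 0.04 and 0.01 after the correction. *Kif3c* shares 2617 of its exonic bases with 1110002L01Rik on the opposite strand, and reads of the 2 genes may not have been told apart, as the strand setting is not given in the sources used here. *Kif17* had 28.0, 24.0 and 22.9 CPM in the WT mice and 26.9, 31.6 and 30.8 CPM in the Ube3am-/p+ mice (0.27 ± 0.12, adjusted p = 0.183), and its value after the correction was 0.03.

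The kinesin-4 group holds *Kif21a* and *Kif21b*, which slow microtubule growth in axons and dendrites, *Kif7*, a regulator of hedgehog signalling at the tip of the cilium, its relative *Kif27*, and *Kif4*, a chromosome motor. *Kif21a* had 216, 223 and 228 CPM in the WT mice and 233, 226 and 198 CPM in the Ube3am-/p+ mice, with a fitted difference of 0.00 ± 0.08 SE on the log2 scale. *Kif21b* had 125, 120 and 107 CPM in the WT mice and 115, 138 and 127 CPM in the Ube3am-/p+ mice (0.13 ± 0.10, adjusted p = 0.417). Both overlapped between the genotypes, and their values after the correction were 0.09 and 0.01. *Kif7* (0.41 ± 0.22, adjusted p = 0.267), *Kif27* (0.34 ± 0.27, adjusted p = 0.449) and *Kif4* (-0.56 ± 0.44, adjusted p = 0.452) had large fitted values with large errors, at a mean of 1.04 CPM over the 6 mice in *Kif4* and a total of 303 and 325 counts in *Kif7* and *Kif27*. After the correction they were at 0.19, 0.38 and -0.51.

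*Kif2a*, the kinesin-13 motor tested, does not walk but takes tubulin off microtubule ends, and restrains the growth of axon branches. It had 99.2, 118 and 130 CPM in the WT mice and 106, 78.8 and 77.0 CPM in the Ube3am-/p+ mice. Ube3am-/p+ mice 2 and 3 lay below all WT mice, and mouse 1 lay above WT mouse 1. The log2 fold change was -0.39 ± 0.12 SE and was not called (adjusted p = 0.084). With a GC content of 38.6%, its value was -0.08 (adjusted p = 0.696) after the correction, and the log2 ratio of the mice numbered 1 was 0.10, in the other direction. *Kif2a* also shares 1229 exonic bases with *Dimt1* on the opposite strand.

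The motors of cell division were at low levels. The 4 members of the kinesin-5, 6, 10 and 12 classes tested, *Kif11*, *Kif15*, *Kif20a* and *Kif22*, all had lower fitted values in Ube3am-/p+ mice, with a median log2 fold change of -0.29, and none was called. *Kif20a*, a cytokinesis motor, had 19.0, 21.3 and 18.6 CPM in the WT mice and 16.2, 13.7 and 14.4 CPM in the Ube3am-/p+ mice, without overlap (-0.40 ± 0.14 SE, adjusted p = 0.0965, and -0.37 with adjusted p = 0.173 after the correction). Of its exonic bases, 1271 of 4338 lie opposite exons of *Cdc23*, a subunit of the anaphase-promoting complex. *Kif20a* was at 4.69 CPM per kb, while *Kif11*, *Kif15* and *Kif22* were at 0.466, 0.291 and 1.06. *Kif11*, *Kif15* and *Kif22* had between 75 and 208 counts over the 6 libraries, and their log2 fold changes of -0.18, -0.51 and -0.18 had SE of 0.31, 0.46 and 0.26. After the correction these 3 were at 0.02, -0.31 and -0.17. The summed level of 7 markers of dividing cells was 9.87 to 12.6 CPM in WT mice and 9.19 to 11.98 CPM in Ube3am-/p+ mice, and overlapped. The depolymerase *Kif18a* had a difference of 0.13 ± 0.40, and of 0.47 after the correction.

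The kinesins that are known from motile cilia were near the lower end. *Kif19a*, which sets the length of cilia, had 6.95, 7.03 and 6.99 CPM in the WT mice and 9.24, 7.42 and 7.98 CPM in the Ube3am-/p+ mice. The genotypes did not overlap, yet the difference was not called (log2 fold change 0.25 ± 0.19 SE, adjusted p = 0.428), and it was 0.00 after the correction. *Kif6* and *Kif9*, of the kinesin-9 class, had log2 fold changes of 0.21 ± 0.29 and -0.01 ± 0.22, and of 0.16 and 0.00 after the correction. The summed level of 8 markers of ependymal ciliated cells was 24.0 to 24.9 CPM in WT mice and 36.9 to 46.9 CPM in Ube3am-/p+ mice, 7 of the 8 had a higher fitted value, and *Foxj1*, the master regulator of motile cilia, was called. None of the 8 was at 0 over the series, and their part in the values of *Kif19a*, *Kif6*, *Kif9* and *Kif27* was not tested. *Kif26a* and *Kif26b*, kinesin-like proteins that act in signalling, had differences of 0.27 ± 0.16 and -0.09 ± 0.21, and of 0.05 and -0.15 after the correction.

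The remaining 11 kinesin symbols were not tested. *Kif12*, *Kif2b* and the pseudogene Kif4-ps had no count in any library, and Kif16bos, *Kif28*, *Kif18b*, *Kif14*, *Kif2c*, *Kif20b*, *Kif24* and *Kif23* had between 1 and 53 counts over all 6 libraries. Most of these are motors of the dividing cell. They were left out by the filter on low counts, so that no difference between the genotypes was tested in them.

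Of the β-tubulins, 7 were tested, all with higher fitted values in Ube3am-/p+ mice, and the genotypes did not overlap in 4 of the 7. Of all genes tested, 10.8% were higher without overlap. *Tubb3*, on chr8:123411424-123422015, had 185, 157 and 150 CPM in the WT mice and 187, 209 and 217 CPM in the Ube3am-/p+ mice. WT mouse 1 and Ube3am-/p+ mouse 1 were nearly level, and the gap lay in mice 2 and 3. The log2 fold change was 0.34 ± 0.10 SE, with the lowest adjusted p of the family, 0.064. Its transcript has the highest GC content of the tubulins, 57.9%, and after the correction the difference was 0.10 (adjusted p = 0.542). DESeq2 called *Tubb3* with an adjusted p of 0.0321.

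*Tubb5* had 344, 330 and 342 CPM in the WT mice and 384, 379 and 395 CPM in the Ube3am-/p+ mice. The spread within each genotype was small, and every Ube3am-/p+ mouse lay above every WT mouse, mouse 1 included (log2 fold change 0.21 ± 0.08 SE, adjusted p = 0.121, and 0.13 after the correction). *Tubb4a*, the form of oligodendrocytes and mature neurons, had 635, 625 and 573 CPM in the WT mice and 668, 702 and 779 CPM in the Ube3am-/p+ mice (0.25 ± 0.09, adjusted p = 0.109, and 0.04 after the correction). *Tubb4b* had 196, 184 and 195 CPM in the WT mice and 205, 226 and 228 CPM in the Ube3am-/p+ mice (0.21 ± 0.08, adjusted p = 0.126, and 0.02 after the correction). The genotypes did not overlap in any of the 3 genes, and none was called.

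The near-identical pair on chromosome 13 overlapped between the genotypes. *Tubb2a* had 453, 422 and 413 CPM in the WT mice and 444, 523 and 572 CPM in the Ube3am-/p+ mice (log2 fold change 0.28 ± 0.10 SE, adjusted p = 0.105). *Tubb2b* had 155, 135 and 137 CPM in the WT mice and 132, 163 and 170 CPM in the Ube3am-/p+ mice (0.14 ± 0.10, adjusted p = 0.405). In both, Ube3am-/p+ mouse 1 lay below WT mouse 1 while mice 2 and 3 lay above all WT mice. After the correction both genes were at 0.07. *Tubb6* had 303 counts in all and a difference of 0.23 ± 0.25, which was 0.02 after the correction and -0.41 in the mice numbered 1 alone. *Tubb4a* held 29.0% ± 0.99 (SD, n = 3) of the summed β-tubulin level per kilobase in WT mice and 29.1% ± 0.70 in Ube3am-/p+ mice. *Tubb2a* held 28.2% ± 0.12 and 28.7% ± 1.30, *Tubb5* 13.6% ± 0.56 and 13.2% ± 0.97, and *Tubb3* 9.26% ± 0.61 and 9.88% ± 0.17. The shares of all 7 tested β-tubulins overlapped between the genotypes.

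The abundant α-tubulins had small differences. *Tuba1a* had 565, 649 and 606 CPM in the WT mice and 636, 600 and 621 CPM in the Ube3am-/p+ mice, and the Ube3am-/p+ values all lay within the WT range (log2 fold change 0.05 ± 0.08 SE, adjusted p = 0.77). *Tuba1b* had 296, 331 and 308 CPM in the WT mice and 335, 364 and 341 CPM in the Ube3am-/p+ mice, without overlap (0.17 ± 0.08, adjusted p = 0.209). After the correction both turned below 0, at -0.10 and -0.02. *Tuba4a*, an α-tubulin of mature neurons, had 416, 446 and 459 CPM in the WT mice and 493, 451 and 506 CPM in the Ube3am-/p+ mice (0.15 ± 0.08, adjusted p = 0.27, and 0.06 after the correction), and 1379 of its exonic bases lie opposite *Stk16*. *Tuba1a* held 49.9% ± 0.66 (SD, n = 3) of the summed α-tubulin level per kilobase in WT mice and 47.8% ± 0.87 in Ube3am-/p+ mice, without overlap, while the shares of *Tuba1b* and *Tuba4a* overlapped. With 3 mice per genotype an exact permutation test cannot go below 0.1, and no other test was run on these shares.

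The scarce α-tubulins had the largest fitted values of the family, with large errors. *Tuba1c* had 2.12, 2.42 and 4.94 CPM in the WT mice and 4.06, 5.74 and 4.75 CPM in the Ube3am-/p+ mice (log2 fold change 0.67 ± 0.31 SE, adjusted p = 0.192, and 0.46 after the correction), from 226 counts in all. *Tuba8* had 5.77, 5.76 and 4.25 CPM in the WT mice and 5.97, 6.98 and 8.17 CPM in the Ube3am-/p+ mice (0.44 ± 0.22, adjusted p = 0.227, and 0.31 after the correction), without overlap. *Tuba3a*, *Tuba3b*, *Tubb1* and Tubb2a-ps2 had 5, 0, 3 and 16 counts over all libraries and were not tested.

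The γ-tubulins *Tubg1* and *Tubg2* had levels of 16.9 and 19.2 CPM per kb, below the 9 abundant α- and β-tubulins and above *Tubb6*, *Tuba8* and *Tuba1c*. *Tubg1* had 30.4, 24.7 and 25.9 CPM in the WT mice and 33.4, 34.3 and 34.6 CPM in the Ube3am-/p+ mice. The Ube3am-/p+ mice lay close together and above every WT mouse (log2 fold change 0.35 ± 0.11 SE, adjusted p = 0.0838, and 0.13 after the correction). *Tubg2* had 35.2, 29.7 and 25.6 CPM in the WT mice and 32.0, 38.4 and 40.7 CPM in the Ube3am-/p+ mice (0.31 ± 0.13, adjusted p = 0.164), with overlap. After the correction its value was 0.08 (adjusted p = 0.804), and in the mice numbered 1 alone the log2 ratio was -0.14.

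**Figure D4:**
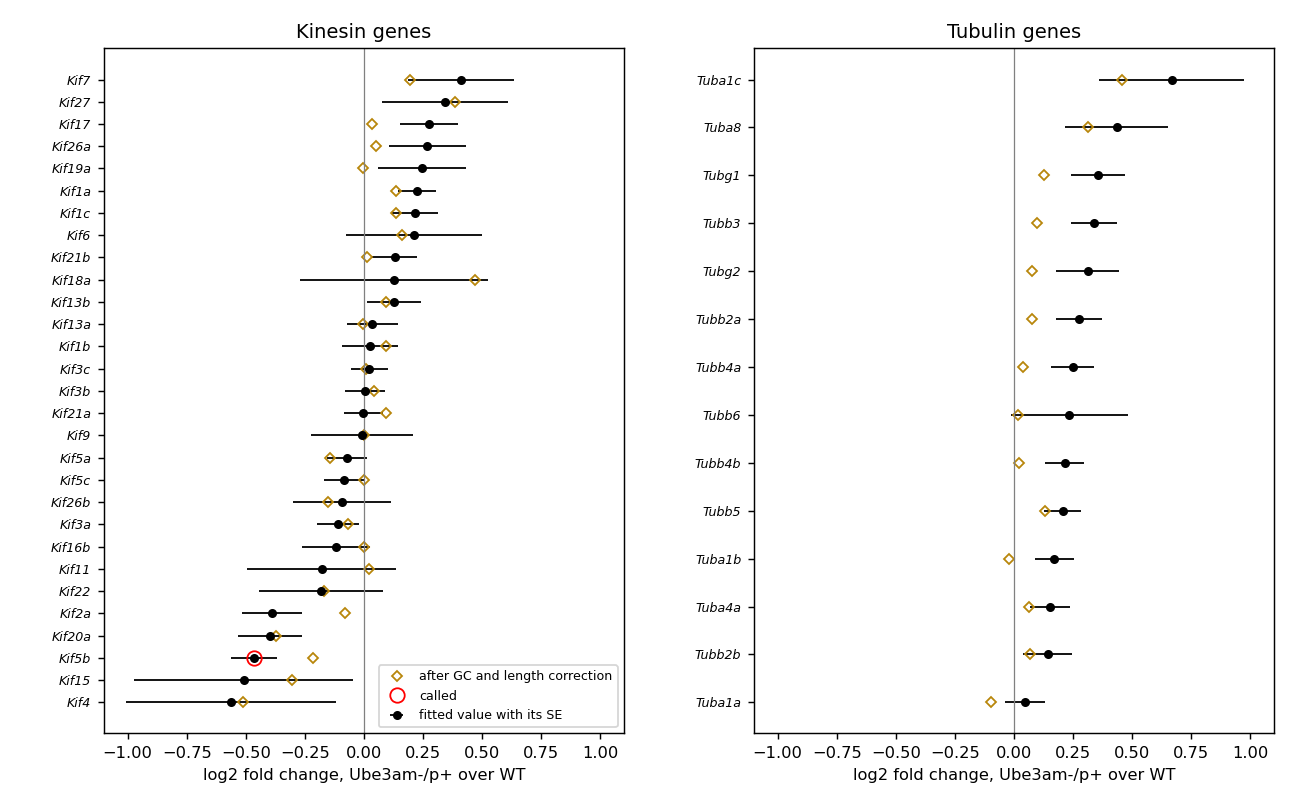
Fitted log2 fold changes of the kinesin and tubulin genes tested, Ube3am-/p+ over WT, as points with their SE, and the values after the GC and length correction as open diamonds. All 14 tubulins lie above 0 before the correction and 12 of 14 after it, and *Kif5b*, at -0.47 (ringed), is the only gene called.

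Whether reads shared between genes go with the tubulin values was examined by parting the family. The 6 tubulins that share no 100-base window with a gene elsewhere had a median log2 fold change of 0.24, and the 8 that do had 0.25. All genes of both sets were higher. The 8 include *Tubg1* and *Tubg2*, which shared 4.11% and 4.23% of their windows. After the GC and length correction the medians of the sets were 0.08 and 0.07. The part of shared reads in the fold changes was not tested. The share of listed reads left out because they aligned more than once was 4.15%, 5.61% and 5.77% in the WT mice, against 4.06%, 3.71% and 3.76% in the Ube3am-/p+ mice.

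GC content went with the fold changes in both families. All 14 tubulins have transcripts of 51.2% to 57.9% GC, above the median of all genes tested, 49.9%. The kinesins span 38.2% to 61.7%. Of the 13 kinesins above the median of all genes, 11 had higher fitted values, with a median log2 fold change of 0.21, and of the 16 below it 12 had lower ones, with a median of -0.11. After the correction these medians were 0.03 and 0.00. Spearman's rho between GC content and log2 fold change was 0.70 over the 29 kinesins and 0.57 over the 14 tubulins, against 0.62 over 14329 genes, all from the same 6 libraries. Transcript length was less related, with rho of 0.15, -0.05 and -0.28. The part of GC content in the difference between the genotypes cannot be told apart from genotype in mice 2 and 3.

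**Figure D5:**
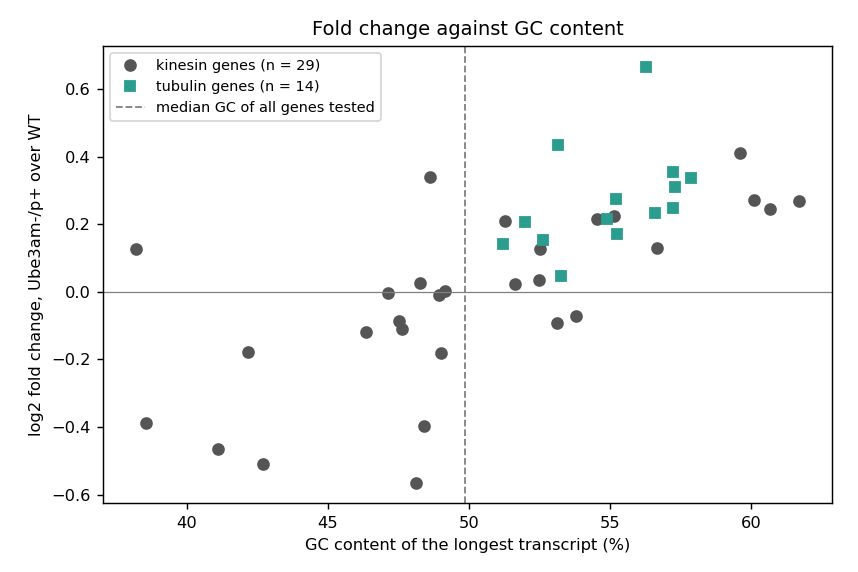
Log2 fold change of each kinesin and tubulin gene, Ube3am-/p+ over WT, against the GC content of its longest transcript (n = 29 and 14), with the median GC content of all genes tested as a dashed line at 49.9%. All tubulins lie right of the line and above 0, and 12 of the 16 kinesins left of it lie below 0.

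The other genes of the microtubule system were taken from a list of 126 genes by role. Of the 116 tested, none was called by edgeR, against 2.01% of all genes, and 41 (35.3%) had an unadjusted p below 0.05, against 24.6% of all genes. DESeq2 called 13 of these 116, beside 951 of all 14445 genes kept by the same filter. There were 66 higher and 50 lower fitted values, with a median log2 fold change of 0.03. After the GC and length correction 57 were higher, 15 had an unadjusted p below 0.05 and the median was -0.01. The values that follow are those before it. The kinesin light chains and associated subunits, which link the motors to cargo, were higher in 4 of 5. After the correction 2 of the 5 were higher, with a median of -0.04. *Klc4* was at 0.35 (adjusted p = 0.153) and *Kifap3*, the partner of the kinesin-2 motors, at -0.19 (adjusted p = 0.213), both before it. Kinesins whose symbols fall outside the pattern were higher in 3 of 5, from *Kifc3*, a minus-end motor, at 0.28 (adjusted p = 0.111) to *Stard9* at -0.27 (adjusted p = 0.329). Among 23 kinesin adaptors, 16 were higher and 7 lower, from *Mapk8ip1*, which ties kinesin-1 to its cargo, at 0.36 (adjusted p = 0.0624) to *Lin7a*, a scaffold of the *Kif17* cargo complex, at -0.42 (adjusted p = 0.0703). After the correction 11 of the 23 adaptors were higher, with a median of -0.01.

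The tubulin folding cofactors, which assemble and take apart the α/β dimer, had the highest median of the roles, 0.38, with 5 of 7 higher, and a median of 0.12 after the correction. *Arl2*, the small GTPase that regulates them, was at 0.66 (adjusted p = 0.0738) and *Tbce*, which binds α-tubulin, at -0.29 (adjusted p = 0.119). Of the 4 stathmins, which bind free dimers, 3 were higher, with a median of 0.25 (0.07 after the correction), from *Stmn3* at 0.28 (adjusted p = 0.0756) to *Stmn2* at -0.14 (adjusted p = 0.331). The γ-tubulin ring complex stood the other way from *Tubg1* and *Tubg2*, with 7 of 9 genes lower and a median of -0.08 (-0.05 after the correction). Its small subunit *Mzt1* had the lowest adjusted p of the whole list, 0.0507, with a log2 fold change of -0.42, and *Mzt2* was at 0.33 (adjusted p = 0.189). None of these values passed the test.

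Of 16 structural microtubule-associated proteins, 7 were higher and 9 lower. *Map7d1*, of a family that recruits kinesin-1, was at 0.39 (adjusted p = 0.08) and *Dcx*, the doublecortin of immature neurons, at -0.48 (adjusted p = 0.0807). Of 15 plus-end binding proteins, 11 were lower, from *Clip2* at 0.23 (adjusted p = 0.122) to *Clasp2* at -0.28 (adjusted p = 0.106). Of 23 tubulin-modifying enzymes, 18 were higher, and 14 after the correction. Before it they ran from *Ttll8*, a glycylase, at 0.67 (adjusted p = 0.219) to *Ttll7*, which adds glutamate to β-tubulin tails, at -0.33 (adjusted p = 0.0632). The 7 severing enzymes had a median of -0.02, with *Spast*, spastin, the lowest at -0.28 (adjusted p = 0.121). The other tubulins tested, *Tubd1* and *Tube1*, known from centrioles, were at -0.10 and 0.06.

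Markers of the cell types that hold these genes were set beside them. The summed level of 6 markers of immature neurons, a cell type rich in *Tubb3*, *Tubb2b* and *Tuba1a*, was 101 to 125 CPM in WT mice and 86.1 to 92.2 CPM in Ube3am-/p+ mice, with 4 of 6 lower. The 6 neuronal markers summed to 4430 to 4669 CPM in WT mice and 4054 to 4230 CPM in Ube3am-/p+ mice, with 3 of 6 higher, and the 5 of excitatory hippocampal neurons to 6956 to 7947 and 7581 to 8393 CPM. The 6 of oligodendrocytes summed to 7954 to 8070 and 6641 to 7568 CPM, with 3 of 6 higher. The 6 of inhibitory neurons summed to 625 to 646 and 561 to 589 CPM, with 3 of 6 higher. The 6 of microglia summed to 255 to 266 and 242 to 244 CPM, also with 3 of 6 higher. These sums, other than that of excitatory neurons, were lower in Ube3am-/p+ mice without overlap. Among single genes, 25.0% of all tested did not overlap, in either direction. The sums for astrocytes, oligodendrocyte precursors and endothelial cells overlapped. Of the 5 precursor markers, 2 were higher, and *Pdgfra* was called lower (log2 fold change -0.43, adjusted p = 0.0466). After the GC and length correction *Pdgfra* was at -0.36 (adjusted p = 0.0455). The 8 markers of meninges and fibroblasts summed to 236 to 333 CPM in WT mice and 338 to 559 CPM in Ube3am-/p+ mice. This sum was higher without overlap, with 8 of 8 higher and 1 called. Choroid plexus markers varied between mice of both genotypes, from 99.7 to 2185 and from 106 to 2270 CPM. None of the defining markers was at 0 over the series. The part of these cell types in the kinesin and tubulin values was not tested.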

How the data were processed

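RNA-seq was made from the hippocampus of 3 WT and 3 Ube3am-/p+ mice. The authors deposited raw counts per gene symbol, 1 library per mouse, not normalized or pooled. The submitters' processing notes name STAR 2.7.4a, HTSeq and mm10; annotation and strand setting are not given in the sources used here. Genes took 39.0% to 41.8% of the listed reads. Nothing tells whether mice shared a litter.

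CPM are counts scaled so that each library's gene counts sum to the same total, 1000000. Genes were kept by filterByExpr, scaled by TMM and tested with edgeR 4.0.16 (R 4.3.3; quasi-likelihood, robust, two-sided), with Benjamini-Hochberg adjustment over 14445 genes. SE are the log2 fold change over the root of F. Alternatives were DESeq2 1.42.0, other scalings and filters, a replicate block, leaving out each mouse, and a correction by natural splines with 5 degrees of freedom on the GC content and on the length of each gene's longest transcript in GENCODE M21 (14329 genes). Steps were tested on simulated data. The simulated counts held no trend with GC content or length, so they cannot show how the correction handles one.

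Full values are given for members called, up to 5 per direction and family without overlap, and neuronal transport kinesins and brain tubulins set by name; for the other roles, the largest rise and fall. Some items covered by this rule are not reported here. *Kif1b*, *Kif1c*, *Kif2a*, *Kif17*, *Tuba1c*, *Tubg2* and the genes named for a low p or an overlap were added after their values were seen. Members and lists were chosen with earlier results of these data known.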

Additional observations from a re-analysis of the deposited data

How the results depend on the processing

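The labels do not tell whether the replicate numbers pair the mice. Same-numbered mice deviated from their genotype means with correlations of -0.28, -0.18 and -0.31. These cannot decide it, because the GC relation of mice 2 and 3 is opposite in the genotypes and shifts each genotype's mean. With the replicate number as a block, 0 of all genes were called (2422 at an unadjusted p below 0.05), 0 kinesins, 0 tubulins and 0 of the listed microtubule genes, with *Kif5b* at -0.47 (adjusted p = 0.216) and a tubulin median of 0.25. DESeq2 called 951 genes, 2 kinesins, 1 tubulin and 13 microtubule genes, and without a filter on low counts edgeR called 1176, 2, 1 and 17. After the GC and length correction 94 genes were called, 49 of them among the 290, with 0 kinesins and a tubulin median of 0.072, and with the replicate block added 17 genes, 0 kinesins and a tubulin median of 0.068. At an unadjusted p and a fold change above 1.2 there were 2832 genes, 4 kinesins, 5 tubulins and 26 microtubule genes. Scaling by DESeq2's size factors, library size alone or a minimum of 10 counts in every sample each called 1 microtubule gene. Leaving out each mouse in turn gave 0 to 2582 genes (0 without WT mouse 2, WT mouse 3 or Ube3am-/p+ mouse 2, 2 without Ube3am-/p+ mouse 3, 1816 without Ube3am-/p+ mouse 1, 2582 without WT mouse 1), 0 to 3 kinesins, 0 to 5 tubulins (5 without WT mouse 1, 4 without Ube3am-/p+ mouse 1) and 0 to 35 microtubule genes, with a kinesin median of -0.024 to 0.12 and a tubulin median of 0.18 to 0.33. For the mice numbered 1 alone, added after the data were seen, the tubulin median was 0.069. Over the 43 members, 570 of 642 repeated values kept their direction and their side of the threshold, 36 had the other sign with no call in either fit, 16 gained a call, 7 lost one, 13 had no adjusted p, and none turned with a call. After the GC and length correction, values of the other sign were 0.023 in *Kif11*, -0.0028 in *Kif13a*, 0.0014 in *Kif16b*, -0.0025 in *Kif19a*, 0.094 in *Kif21a*, 0.0018 in *Kif5c*, -0.097 in *Tuba1a* and -0.023 in *Tuba1b*. With the replicate block added they were 0.035 in *Kif11*, -0.0027 in *Kif13a*, -0.0055 in *Kif19a*, 0.094 in *Kif21a*, 0.0030 in *Kif5c*, -0.094 in *Tuba1a* and -0.019 in *Tuba1b*. By library size alone *Kif3b* was at -0.013, with upper-quartile factors *Kif21a* was at 0.0097 and *Kif9* at 0.0037, and without a filter *Kif21a* was at 0.0087 and *Kif9* at 0.0027. Leaving out each mouse in turn gave -0.011 to 0.11 in *Kif13a*, -0.17 to 0.52 in *Kif18a*, -0.082 to 0.18 in *Kif1b*, -0.037 to 0.058 in *Kif21a*, -0.23 to 0.13 in *Kif26b*, -0.028 to 0.042 in *Kif3b*, -0.010 to 0.055 in *Kif3c*, -0.19 to 0.14 in *Kif9* and -0.00046 to 0.10 in *Tuba1a*. The kinesin-binding protein was counted under *Kifbp*, so leaving out *Kif1bp* was not run. The 15 members not tested had too few counts for the filter.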
